A study of Mus musculus with 6 samples.

Results

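Immunoglobulin light chain transcripts were followed in subcutaneous Hep1-6 tumours. Hep1-6 is a hepatoma line of the mouse, and the hosts were C57BL/6J animals. Their diet was either high in cholesterol (HCD, 3 tumour libraries) or normal (ND, 3 tumour libraries). The labels give no age, and they do not tie each tumour to its own animal, so the p-values reflect only how far these samples spread, which may be technical. No unmixed Hep1-6 culture or tumour-free tissue was among these samples. Members were the rows named as a kappa or lambda variable (V) or joining (J) segment, Igkc, or Iglc1 to Iglc3, with a value above 0 in at least 1 library. In all 98 of 34745 rows qualified: 83 Igkv, 5 Igkj, Igkc, 3 Iglv, 3 Iglj and 3 Iglc. The names alone fit 179 rows, and 81 of these were listed at 0 in every library. The members with the lowest maximum were Igkv4-79, at 0.107 FPKM, and Igkv4-54, at 0.119 FPKM.

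Every antibody and B cell receptor pairs heavy chains with light chains, and a light chain is either kappa or lambda. In a developing B cell, recombination joins a V segment to a J segment, and splicing joins that exon to a constant gene (Igkc for kappa, Iglc1, Iglc2 or Iglc3 for lambda). Mice use kappa far more than lambda, and an expanded clone of B or plasma cells carries a single V and J pair, so V segment usage is a readout of the B lineage cells in a tissue.

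Values are FPKM, fragments scaled to gene length and to library size, as the authors deposited them. Library sizes read from the value steps were 20351584 to 20918366 fragments in HCD and 20622674 to 26228066 in ND. Each member's values corresponded to whole numbers of reads in all 6 libraries, at a length within 15% of the annotated one. The margin was 0.03 of a read plus a part that grew with the number of reads. The match is therefore a weak check for members with many reads or with reads in 1 library. Over all members these came to 4048, 4349 and 686 reads in HCD 1 to HCD 3, against 576, 3701 and 1538 reads in ND 1 to ND 3. The hepatoma marker Alb, serum albumin, lay at 1469, 1176 and 1672 FPKM in HCD 1 to HCD 3, against 1553, 1299 and 1272 FPKM in ND 1 to ND 3.

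The length behind each FPKM value bears on any ranking of segments. For the 68 members with 1 annotated transcript, the length that made the reads whole was the GENCODE M21 transcript length in 68 cases. For the 30 members with 2 transcripts, it was the sum of both transcript lengths in 24 cases, although the transcripts overlap. That sum was 1.74 to 1.99 times the length with each base counted once. Their FPKM is therefore lower than that of a segment with 1 transcript and the same number of reads per base. Igkv17-121, Igkv17-127, Igkv12-89, Igkj2, Igkj3, Igkj5, Iglc2 and Iglv2 are among the 30. Comparisons of a gene with itself across libraries are not touched by this.

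Igkc, the constant gene shared by every kappa chain (chromosome 6, 70726435 to 70726966, plus strand, GRCm38), was at 199, 202 and 29.7 FPKM in HCD 1 to HCD 3, against 27.7, 146 and 74.0 FPKM in ND 1 to ND 3. HCD 1, HCD 2 and ND 2 were high, while HCD 3 and ND 1 were low, so the groups overlapped. The underlying reads were 2152, 2198 and 331 in HCD, against 337, 2042 and 812 in ND. Group means were 144 ± 98.6 FPKM in HCD and 82.7 ± 59.8 FPKM in ND (SD, n = 3 each). The log2 difference was 0.66 (SE 0.91, 95% interval -1.55 to 2.86, limma adjusted p = 0.872), well inside the spread between libraries. Without ND 1 it was 0.03, without HCD 1 it was 0.21 and without HCD 2 it was 0.20, while it was 1.56 without HCD 3 and 1.21 without ND 2. In bulk tissue, fewer B lineage cells and less light chain RNA per cell cannot be told apart.

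**Figure D1:**
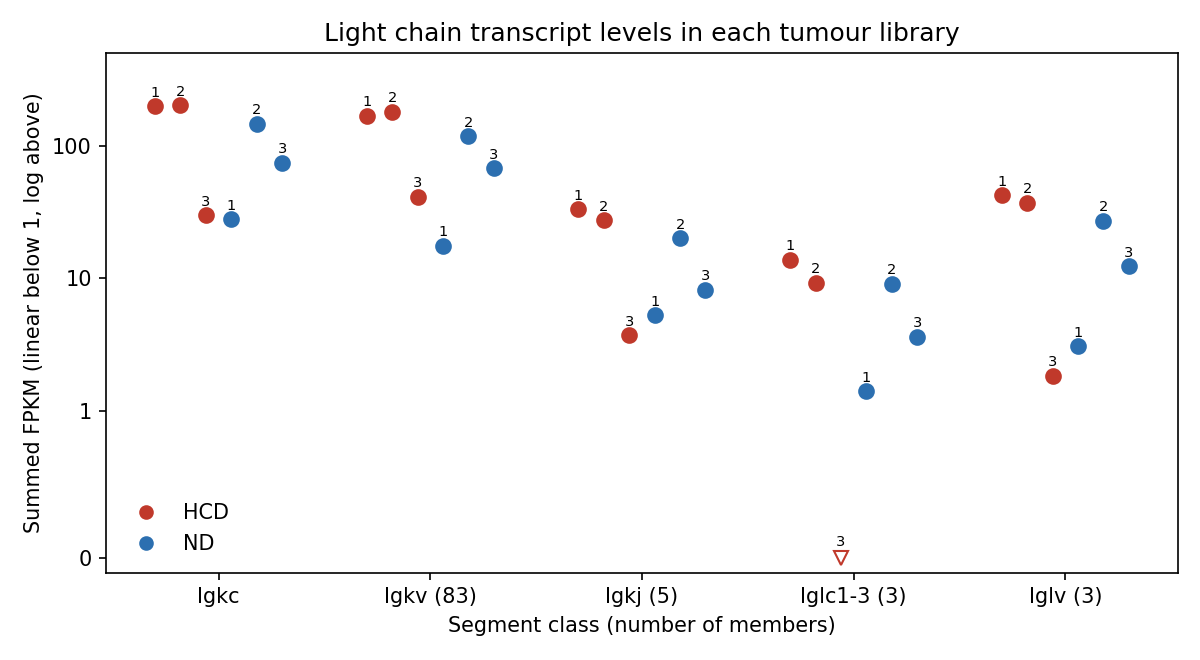
Summed FPKM (vertical axis, linear below 1 and logarithmic above) of each light chain class (horizontal axis), with 1 point per library and its replicate number, HCD in red and ND in blue. In each of the 5 classes drawn, which leave out Iglj with at most 4 reads in a library, HCD 1, HCD 2 and ND 2 are the 3 highest libraries, HCD 3 and ND 1 are the 2 lowest, and the open triangle marks HCD 3, where Iglc1 to Iglc3 are listed at 0.

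Variable segments followed the same order of libraries. The 83 Igkv segments summed to 168, 179.5 and 41.0 FPKM in HCD 1 to HCD 3, against 17.6, 118 and 67.7 FPKM in ND 1 to ND 3. Igkv FPKM summed to 0.847, 0.888 and 1.38 times that of Igkc in HCD, against 0.634, 0.804 and 0.915 times in ND. In the deposited values HCD 3 was the library with a higher summed Igkv than Igkc value. With each base counted once, summed Igkv was 182, 229 and 42.8 FPKM in HCD 1 to HCD 3, against 21.1, 125 and 74.6 FPKM in ND 1 to ND 3, which placed it above Igkc in HCD 2 and ND 3 as well.

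Markers of other cell types differed between these libraries too, and their part in the light chain levels was not tested. The 5 skeletal muscle markers summed to 739, 71.1 and 5.93 FPKM in HCD 1 to HCD 3, against 4.64, 628 and 10.8 FPKM in ND 1 to ND 3. HCD 1 and ND 2 were thus high in muscle and light chain transcripts, HCD 3 and ND 1 were low in both, and HCD 2, with the highest Igkc value, had a muscle sum well below those of HCD 1 and ND 2. The 5 T cell markers summed to 22.9, 36.2 and 14.1 FPKM in HCD 1 to HCD 3, against 4.56, 16.4 and 18.4 FPKM in ND 1 to ND 3. The 5 macrophage markers summed to 532, 883 and 357.5 FPKM in HCD 1 to HCD 3, against 216, 530 and 428 FPKM in ND 1 to ND 3. T cell and macrophage sums were highest in HCD 2 and lowest in ND 1. No marker of these 3 lists was at 0 in any library. All 5 genes of each list had a higher HCD mean of log2(FPKM + 1), where 55.7% of all genes tested did. None passed the test between diets. The plain FPKM means of Myh4 and Ckm, both muscle genes, were lower in HCD.

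Lambda transcripts were carried mainly by Iglv1 and Iglc1. Iglv1, the most used mouse lambda variable segment (chromosome 16, 19085017 to 19085500, minus strand), was at 39.5, 33.4 and 1.83 FPKM in HCD 1 to HCD 3, against 2.13, 25.2 and 9.18 FPKM in ND 1 to ND 3. Iglc1, a lambda constant gene (chromosome 16, 19061618 to 19062071, minus strand), was at 11.5, 8.63 and 0 FPKM in HCD 1 to HCD 3, against 0.578, 8.48 and 2.78 FPKM in ND 1 to ND 3. Both genes were high in the 3 libraries in which Igkc was high. Their log2 differences were 0.75 (SE 1.22, limma adjusted p = 0.893) for Iglv1 and 0.36 (SE 1.10, limma adjusted p = 0.942) for Iglc1. Iglv1 stood at 3.44 and 3.88 times the FPKM of Iglc1 in HCD 1 and HCD 2, against 3.68, 2.97 and 3.31 times in ND 1 to ND 3. In HCD 3, Iglv1 had 15 reads and Iglc1 none.

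Iglv3, another lambda variable segment, was at 1.93, 3.34 and 0 FPKM in HCD 1 to HCD 3, against 0.804, 1.90 and 3.05 FPKM in ND 1 to ND 3, with a log2 difference of -0.25 (limma adjusted p = 0.927). Iglv2 had 14, 3 and 0 reads in HCD, against 2, 2 and 1 in ND. The coding sequences of Iglv1 and Iglv2 were identical at 96.9% of 351 aligned bases, so the split of reads between them is uncertain. Iglc2 and Iglc3, lambda constant genes identical at 96.2% of 315 aligned bases, carry the same uncertainty. Iglc2 had 13, 8 and 0 reads in HCD 1 to HCD 3, against 20, 11 and 16 in ND 1 to ND 3, and did not follow Iglc1. In ND 1 it had more reads than Iglc1, 20 against 6. Iglc3 had 15, 2 and 0 reads in HCD, against 0, 2 and 1 in ND. Means of Iglv2, Iglc2 and Iglc3 were below the 0.5 FPKM needed for testing.

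The kappa to lambda ratio, taken as Igkc over the sum of Iglc1, Iglc2 and Iglc3, was 14.5 in HCD 1 and 22.0 in HCD 2, against 19.8, 16.2 and 20.5 in ND 1 to ND 3. In HCD 3 the ratio has no value, since all 3 lambda constant genes are listed at 0. There, 0 lambda reads stood beside 331 reads of Igkc, and 3 reads, the limit taken for a count of 0, would be 0.906% of the Igkc reads. The mean log2 ratio was 4.16 ± 0.42 in HCD (SD, n = 2) and 4.23 ± 0.18 in ND (SD, n = 3), a difference of -0.07 that is smaller than the spread within either diet. The sign of this difference turned without HCD 1 (0.23) and with each base counted once in gene length (0.14). With that length the ratio was 14.05 in HCD 1 and 21.3 in HCD 2, against 13.8, 15.7 and 17.8 in ND 1 to ND 3. ND 1 was then the lowest library with a value. Iglc2, which has 2 annotated transcripts, held 20 of the 26 lambda constant reads of ND 1. As a share of constant gene reads, Igkc held 94.1% (95% Wilson interval 93.1 to 95.03), 96.1% (95.2 to 96.8) and 100% (98.9 to 100) in HCD 1 to HCD 3, where the Wilson bound is wider than the limit from 3 reads. In ND 1 to ND 3 it held 92.8% (89.7 to 95.1), 94.7% (93.7 to 95.6) and 94.97% (93.3 to 96.3). The intervals cover counting error only, as fragments without molecular identifiers need not be independent molecules.

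Variable segments gave a lower ratio in the same libraries. Summed Igkv over summed Iglv was 3.97, 4.86 and 22.3 in HCD 1 to HCD 3, against 5.76, 4.33 and 5.51 in ND 1 to ND 3. HCD 3 lay far above the others, and the other 5 libraries fell between 3.97 and 5.76. Kappa held 95.7% of variable segment reads in HCD 3 (95% Wilson interval 93.1 to 97.4), against 80.1% in HCD 1 (78.1 to 81.9) and 85.4% in HCD 2 (83.8 to 86.9). Among ND libraries the share was 86.5% (81.1 to 90.5), 81.6% (79.5 to 83.4) and 85.3% (82.4 to 87.8). Over groups the mean log2 ratio was 2.92 ± 1.36 in HCD and 2.37 ± 0.22 in ND (SD, n = 3 each). A ratio summed over members was given no test.

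**Figure D2:**
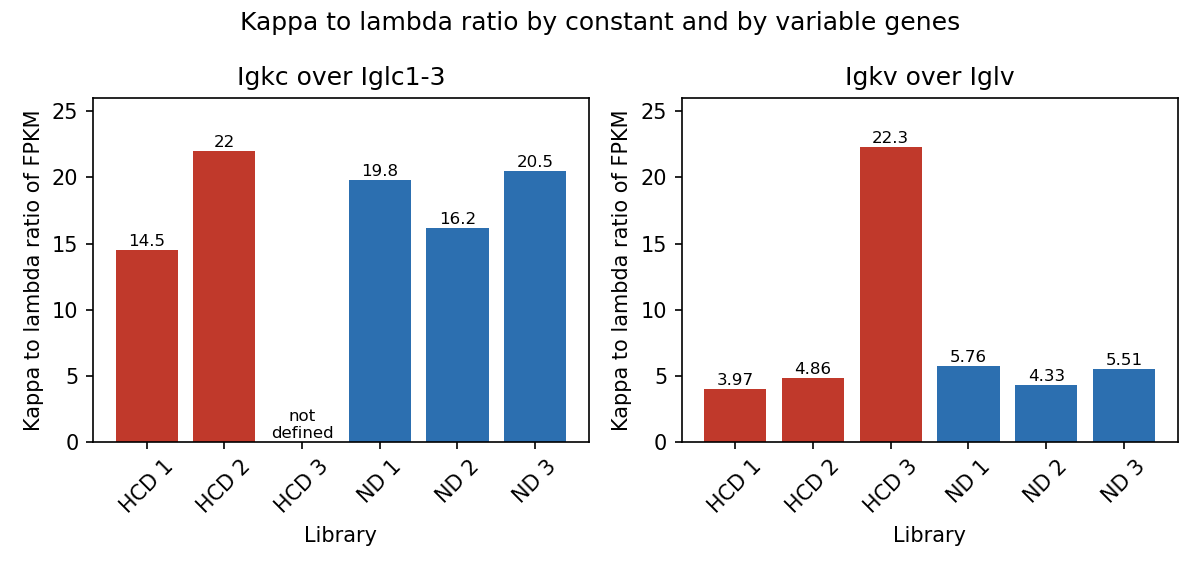
Kappa to lambda ratio of FPKM in each library (horizontal axis), by constant genes on the left (Igkc over Iglc1 to Iglc3) and by variable segments on the right (Igkv over Iglv), with bars from 0. Constant genes give 14.5 to 22.0 in the 5 libraries with a value, whereas variable segments give 3.97 to 5.76 in those 5 libraries and 22.3 in HCD 3.

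The leading kappa variable segments differed between libraries in part, with 5 different leaders among 6 libraries. Igkv1-110 led in HCD 1 and ND 2, Igkv12-46 in HCD 2, Igkv16-104 in HCD 3, Igkv1-117 in ND 1 and Igkv2-109 in ND 3. The lead in ND 3 was 7.13 against 7.08 FPKM for Igkv1-117, which had more reads, 59 against 55. The 3 highest segments of the 6 libraries came to 10 different segments, of which 5 were in the top 3 of a single library. The germline ends of leading segments and of Iglv1 are printed here because the bases after the last cysteine codon open the last complementarity determining region, the part that recombination completes. Sequences are from GENCODE M21 transcripts on GRCm38, coding strand, 5′ to 3′, and capitals mark the last in-frame TGT or TGC codon.
Igkv12-46 (chr6:69764523-69764578, minus strand): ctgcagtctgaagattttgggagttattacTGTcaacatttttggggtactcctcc
Igkv17-121 (chr6:68037263-68037318, plus strand): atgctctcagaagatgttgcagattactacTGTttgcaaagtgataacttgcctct
Igkv1-110 (chr6:68271212-68271267, plus strand): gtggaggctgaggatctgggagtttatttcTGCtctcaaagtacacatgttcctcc
Igkv1-117 (chr6:68121772-68121827, plus strand): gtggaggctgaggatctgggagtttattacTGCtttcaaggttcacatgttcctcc
Igkv16-104 (chr6:68426016-68426072, plus strand): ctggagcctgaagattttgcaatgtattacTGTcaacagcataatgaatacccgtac
Igkv10-96 (chr6:68631963-68632018, minus strand): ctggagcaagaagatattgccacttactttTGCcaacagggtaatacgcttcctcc
Iglv1 (chr16:19085017-19085073, minus strand): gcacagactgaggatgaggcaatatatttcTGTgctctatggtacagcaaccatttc

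Igkv1-110 and Igkv1-117 were in the upper ranks of both diets. Igkv1-110 was at 30.5, 15.02 and 3.58 FPKM in HCD 1 to HCD 3, against 1.85, 16.6 and 4.84 FPKM in ND 1 to ND 3. It made up 18.1%, 8.36% and 8.73% of summed Igkv FPKM in HCD, against 10.6%, 14.2% and 7.14% in ND. Igkv1-117 was at 8.27, 8.60 and 3.08 FPKM in HCD 1 to HCD 3, against 2.49, 15.3 and 7.08 FPKM in ND 1 to ND 3. Its share was 4.92%, 4.79% and 7.51% in HCD, below each of the ND shares of 14.2%, 13.0% and 10.5%. The share was given no test, and the levels of Igkv1-117 overlapped between diets. By level, 12.1% of all genes tested did not overlap between diets. The log2 difference in level was 0.99 for Igkv1-110 (SE 0.90, limma adjusted p = 0.824) and -0.11 for Igkv1-117 (SE 0.61, limma adjusted p = 0.970). The coding sequences of the pair were identical at 97.2% of 359 aligned bases, and 50.9% and 49.9% of their 50-base windows also occurred in another annotated gene, so the split of reads between them is uncertain.

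HCD 2 stood apart by Igkv12-46 and the pair Igkv17-121 and Igkv17-127. Igkv12-46 was at 11.9, 35.1 and 1.14 FPKM in HCD 1 to HCD 3, against 0.348, 5.46 and 1.29 FPKM in ND 1 to ND 3. Igkv17-121 was at 0.624, 22.2 and 0 FPKM in HCD 1 to HCD 3, against 0, 0.753 and 0.684 FPKM in ND 1 to ND 3. Its 322 reads in HCD 2 compare with at most 14 in any other library. Igkv17-127 was at 5.62, 15.04 and 0 FPKM in HCD 1 to HCD 3, against 0.250, 1.14 and 0.762 FPKM in ND 1 to ND 3. Igkv17-121 and Igkv17-127 were identical at 94.9% of 350 aligned bases, and reads of such a pair can be exchanged. The leader of HCD 2 depended on gene length. With each base counted once, Igkv17-121 was at 43.4 FPKM there and stood above Igkv12-46 at 35.1 FPKM.

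In HCD 3, Igkv16-104 and Igkv10-96 held most of the kappa signal. Igkv16-104 was at 8.45, 0.777 and 14.9 FPKM in HCD 1 to HCD 3, against 0.694, 0.706 and 0.641 FPKM in ND 1 to ND 3. It accounted for 36.4% of summed Igkv FPKM in HCD 3, with 118 of 335 Igkv reads (35.2%, 95% Wilson interval 30.3 to 40.5), and for 0.433% in HCD 2. Igkv10-96 was at 14.0, 5.32 and 8.39 FPKM in HCD 1 to HCD 3, against 0.487, 3.19 and 3.78 FPKM in ND 1 to ND 3. All HCD values of both segments lay above all ND values, as did those of 5.98% of all genes tested. For Igkv16-104, however, the margin was 0.777 in HCD 2 against 0.706 FPKM in ND 2. The reads of Igkv16-104 were 6 in HCD 2, against 6, 7 and 5 in ND 1 to ND 3. Its gap between HCD 2 and both ND 1 and ND 2 thus rested on the scaling to library size. No 50-base window of Igkv16-104 occurred in another gene, whereas 32.6% of those of Igkv10-96 did, so the reads of Igkv10-96 are less certainly its own.

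Among ND libraries, Igkv6-25 and Igkv2-109 were prominent. Of the 50-base windows of Igkv6-25, 45.6% also occurred in another annotated gene, as did 20.6% of those of Igkv2-109. The reads of both are therefore less certainly their own. Of the 90 members with such windows, 53 had more than 20% of them in another gene. Igkv6-25 was at 3.23, 0.644 and 0.252 FPKM in HCD 1 to HCD 3, against 0.345, 10.7 and 6.25 FPKM in ND 1 to ND 3. It had the lowest p of the segments with a lower HCD mean, with a log2 difference of -1.24 (SE 0.87, limma adjusted p = 0.795). Igkv2-109 was at 1.58, 3.01 and 0.511 FPKM in HCD 1 to HCD 3, against 0.234, 1.02 and 7.13 FPKM in ND 1 to ND 3, so that its rank in ND 3 rested on 55 reads in that library. Igkv1-135 and Igkv14-111, the remaining members of the 10 with the highest mean, ranged from 0.485 to 10.8 FPKM and from 0 to 7.05 FPKM over the 6 libraries, highest in HCD 2 and ND 2.

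**Figure D3:**
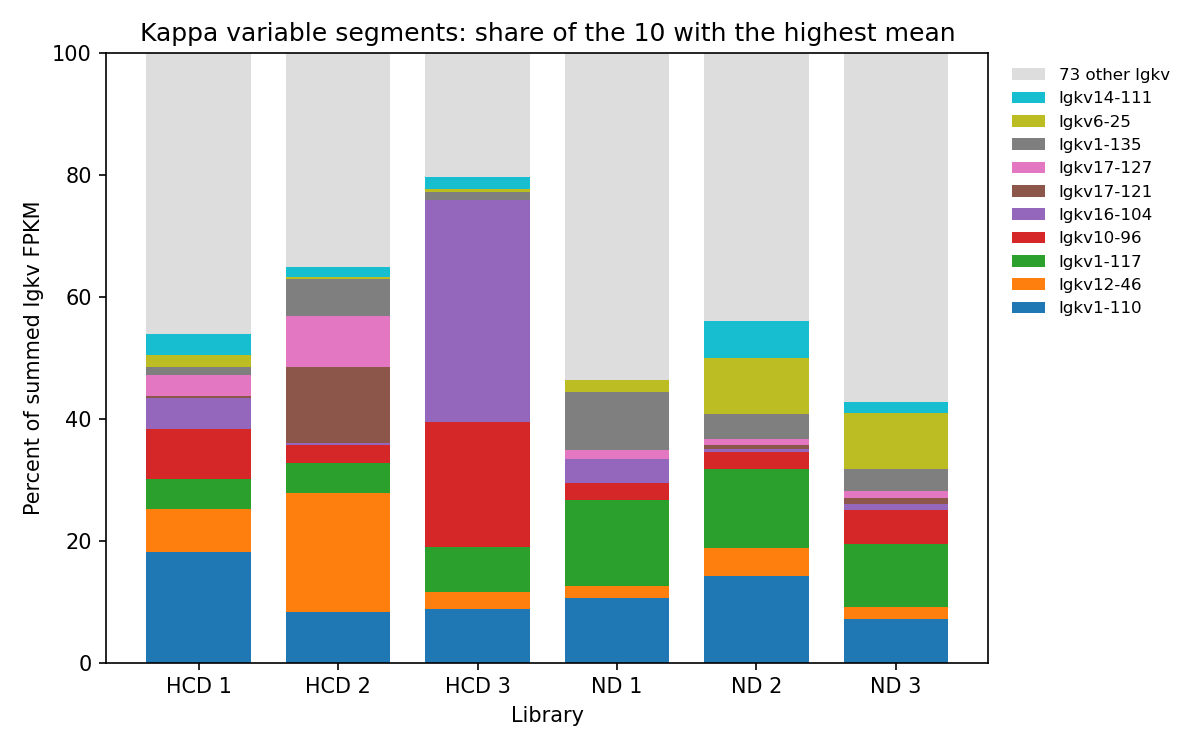
Percent of summed Igkv FPKM (vertical axis) held in each library by the 10 Igkv segments with the highest mean, with the other 73 in grey. Igkv16-104 fills 36.4% of HCD 3, Igkv12-46 fills 19.5% of HCD 2, and Igkv1-110 is present in every bar at 7.14% to 18.1%.

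Kappa usage was most concentrated in HCD 3. The leading segment held 18.1%, 19.5% and 36.4% of summed Igkv FPKM in HCD 1 to HCD 3, against 14.2%, 14.2% and 10.5% in ND 1 to ND 3. With all segments counted each HCD library lay above each ND library, with means of 24.7% ± 10.2 in HCD and 12.9% ± 2.10 in ND (SD, n = 3 each). The HCD mean lay 5.89 percentage points above ND without HCD 3, in place of 11.7. When segments under 1 FPKM were left out, the shares were 19.98%, 21.1% and 41.7% in HCD 1 to HCD 3, against 32.2%, 16.03% and 13.4% in ND 1 to ND 3, so ND 1 lay above HCD 1 and HCD 2 and the diets overlapped. The effective number of segments, the exponential of the Shannon entropy of the shares, was 27.1, 21.3 and 8.77 in HCD 1 to HCD 3, against 22.9, 23.7 and 28.7 in ND 1 to ND 3. It overlapped between diets. Igkv segments above 0 numbered 65, 56 and 26 in HCD, against 35, 59 and 55 in ND, on 1378, 1729 and 335 Igkv reads in HCD and 179, 1234 and 573 in ND. ND 1, with fewer Igkv reads than HCD 3, had more segments above 0 and a higher effective number.

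Most segments were seen in some libraries only. Of the 83 Igkv members, 13 were above 0 in all 6 libraries and 17 in a single one. Read numbers differed between libraries, so an absence at low depth is not shown to be an absence of the segment. Igkv12-89, named as one of the 3 highest segments of ND 1, had the smallest ratio of highest to lowest value among members above 0 in every library, a feature picked out after its values were seen. It was at 0.854, 2.63 and 1.66 FPKM in HCD 1 to HCD 3, against 1.73, 1.57 and 2.07 FPKM in ND 1 to ND 3. The highest value was 3.08 times the lowest, against 7.30 times for Igkc. Its 11, 34 and 22 reads in HCD and 25, 26 and 27 reads in ND did not follow Igkc, and with each base counted once it led ND 1 at 3.23 FPKM. Its reads rest on a length of 633 bases found from the value steps, where the M21 transcripts sum to 673. No 50-base window of its annotated V transcript occurred in another gene.

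Members were mostly annotated as functional genes. Of 101 Igkv rows annotated as functional V genes in GENCODE M21, 78 were above 0 in some library. Of 61 rows annotated as V pseudogenes, 5 were, namely Igkv4-60, Igkv13-89-1, Igkv11-114, Igkv4-77 and Igkv2-107, at no more than 0.313 FPKM. By family, the 6 Igkv1 members held 25.8%, 19.9% and 17.4% of summed Igkv FPKM in HCD 1 to HCD 3, against 37.2%, 31.5% and 21.6% in ND 1 to ND 3. The 23 Igkv4 members, the largest family here, held between 5.10% and 10.5% in every library. Igkv6 held 12.6%, 5.71% and 1.47% in HCD, against 9.57%, 18.4% and 20.8% in ND. Igkv17 held 20.8% in HCD 2 and at most 3.71% elsewhere.

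Kappa V segments lie on both strands of chromosome 6, so that recombination deletes or inverts the stretch between V and J. Members stretched from 22.3 to 3116 kb upstream of Igkc. The 30 members on the strand of Igkc held 53.4%, 52.0% and 57.8% of summed Igkv FPKM in HCD 1 to HCD 3, against 55.2%, 66.0% and 51.7% in ND 1 to ND 3. The 33 members more than 1558 kb from Igkc, midway between Igkc and its farthest member, held 55.8%, 56.4% and 85.7% in HCD, against 72.7%, 58.5% and 56.6% in ND. HCD 3 and ND 1, the libraries with the fewest light chain reads, had the highest distal shares.

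**Figure D4:**
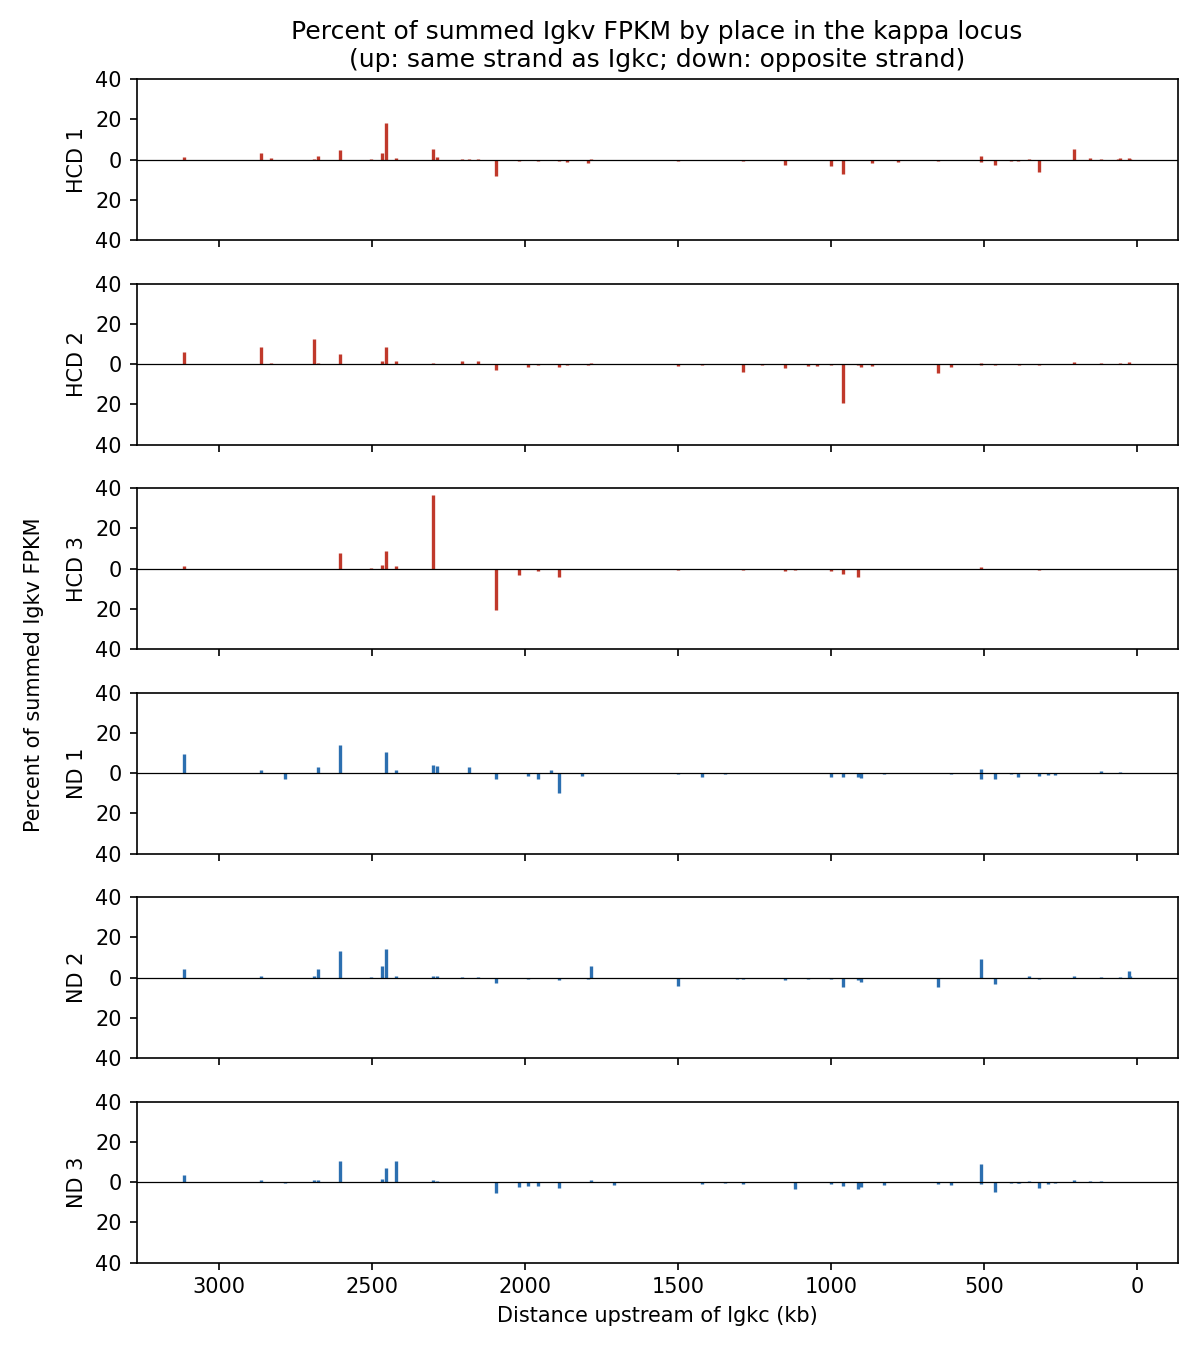
Percent of summed Igkv FPKM (vertical axis) for each Igkv member by its distance upstream of Igkc in kb (horizontal axis), 1 panel per library, with bars up for segments on the strand of Igkc and down for the opposite strand. In HCD 3 a pair of tall bars, Igkv16-104 and Igkv10-96, lies 2300.4 and 2094 kb upstream, while HCD 2 has its tallest bar, Igkv12-46, at 961 kb.

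J segments, with 38 or 39 coding bases each in those printed here, had few reads. The 5 Igkj segments had 37, 36 and 5 reads in HCD 1 to HCD 3, against 6, 32 and 10 reads in ND 1 to ND 3. Of these 126 reads, Igkj5 held 49, Igkj4 held 35, Igkj2 and Igkj3 held 19 each and Igkj1 held 4. Their germline sequences are printed because Igkj3 differs from the others in the framework motif and still had reads in every library. Capitals mark codon TTC followed by GGN, any codon and GG, which encode the phenylalanine and glycines that J segments share. On the coding strand 6 of the 8 J members held it (75%), all except Igkj3 and Iglj3p, and on the other strand 0 did (GENCODE M21, GRCm38, 5′ to 3′). The Iglj1 and Iglj3 sequences are set beside them as the lambda form.
Igkj1 (chr6:70722562-70722599, plus strand): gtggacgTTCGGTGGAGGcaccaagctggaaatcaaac
Igkj2 (chr6:70722916-70722954, plus strand): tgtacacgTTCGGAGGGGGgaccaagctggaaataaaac
Igkj3 (chr6:70723223-70723260, plus strand): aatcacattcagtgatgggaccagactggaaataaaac
Igkj4 (chr6:70723548-70723585, plus strand): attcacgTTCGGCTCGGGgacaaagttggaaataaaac
Igkj5 (chr6:70723886-70723923, plus strand): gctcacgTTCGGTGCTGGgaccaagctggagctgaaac
Iglj1 (chr16:19063225-19063262, minus strand): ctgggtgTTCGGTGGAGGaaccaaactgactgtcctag
Iglj3 (chr16:19067041-19067078, minus strand): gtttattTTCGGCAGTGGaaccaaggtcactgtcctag

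Igkj3, which lacks the motif, had 7, 1 and 1 reads in HCD 1 to HCD 3, against 3, 5 and 2 reads in ND 1 to ND 3. Reads of an unrearranged kappa locus and of a rearranged one are not told apart by these values. Igkj5 was at 6.76, 14.1 and 1.79 FPKM in HCD 1 to HCD 3, against 0, 3.81 and 2.42 FPKM in ND 1 to ND 3, with 23 reads in HCD 2. Its log2 difference was 1.44 (SE 0.79, limma adjusted p = 0.794). Igkj4 was at 16.8, 10.3 and 1.26 FPKM in HCD, against 2.30, 8.03 and 3.83 FPKM in ND, with a log2 difference of 0.55 (SE 0.80, limma adjusted p = 0.877). Igkj1 and Igkj2 had differences of -0.09 and 0.12 (limma adjusted p = 0.972 each). Lambda J segments had 4, 0 and 0 reads in HCD, against 0, 0 and 1 in ND. In HCD 1 these were 2 reads of Iglj3, 1 of Iglj1 and 1 of Iglj3p, and the read in ND 3 was of Iglj3p.

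No light chain row passed the test between diets. The limma fit, on log2(FPKM + 1), took in the 13417 genes that averaged 0.5 FPKM or more, among them 46 of the 98 members. A member can pass that filter through the diet in which it is high. At an adjusted p under 0.05, 0 of 46 members were called, where 0% of all genes tested were called. At an unadjusted p under 0.05 there were 2 members, both higher in HCD, where 5.88% of all genes tested (789) reached that level and 2.56% did so with a higher value in HCD. The count of 2 was 12 without HCD 3, 4 without HCD 2 and 1 without ND 3, and it was 4 with the replicate number as a block. They were Igkv10-96, with a log2 difference of 1.63 (SE 0.52, limma adjusted p = 0.794), and Igkv16-104, with 1.94 (SE 0.77, limma adjusted p = 0.794). Among the 46 tested members they were the ones whose libraries did not overlap between diets, 2 above and 0 below ND, where 5.98% of genes tested lay wholly above ND and 6.13% wholly below. In reads, Igkv16-104 had 6 in HCD 2, against 6 in ND 1 and 7 in ND 2. Of the members under the filter, Igkv2-112 also lay wholly above ND, and Igkv9-124 and Igkv6-14 lay wholly below it, at no more than 0.559 FPKM in any library. Mean log2 values were higher in HCD for 30 members and lower for 16, where 55.7% of genes tested were higher. The median log2 difference of the 46 members was 0.25, against 0.02 over all genes tested. It was -0.07 without ND 1, 0.05 without HCD 1, 0.11 without HCD 2, 0.41 without ND 3, 0.79 without ND 2 and 0.84 without HCD 3. The median half-width of the 95% interval was 1.66 for members and 0.233 for all genes tested, on the log2 scale.

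**Figure D5:**
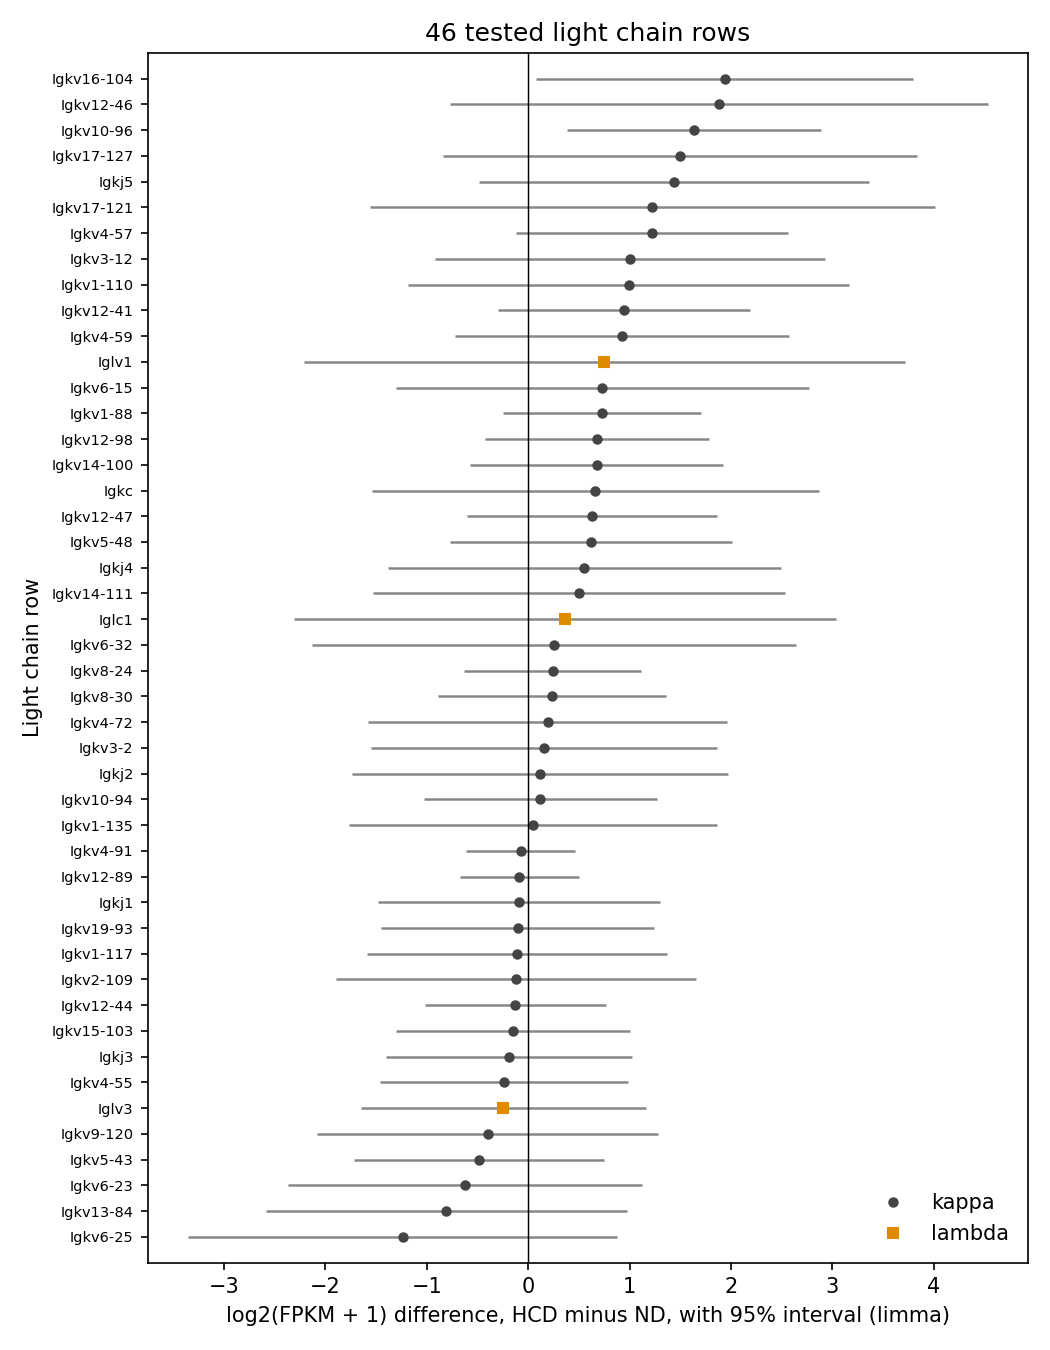
log2(FPKM + 1) difference, HCD minus ND (horizontal axis), of the 46 tested light chain rows (vertical axis), with points for limma estimates and lines for 95% intervals. All intervals except those of Igkv10-96 and Igkv16-104 include 0, and the differences run from -1.24 for Igkv6-25 to 1.94 for Igkv16-104.

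Partners of the light chain followed the order of libraries only in part. The heavy chain constant genes summed to 165, 182 and 24.3 FPKM in HCD 1 to HCD 3, against 20.1, 126 and 48.6 FPKM in ND 1 to ND 3, so HCD 1, HCD 2 and ND 2 were again the high libraries. Ighg1 had the largest share of that sum in HCD 1, at 101 FPKM, and Igha, the IgA heavy chain, in ND 2, at 43.0 FPKM. Ighm, the IgM heavy chain, was at 20.3, 38.1 and 3.56 FPKM in HCD 1 to HCD 3, against 2.19, 21.3 and 4.90 FPKM in ND 1 to ND 3. Of the 6 heavy chain genes tested, 5 had a higher HCD mean, where 55.7% of all genes tested did, and none was called. Igha, the exception, was at 7.50, 11.2 and 3.36 FPKM in HCD 1 to HCD 3, against 14.4, 43.0 and 34.9 FPKM in ND 1 to ND 3. Its HCD values lay wholly below ND, as did those of 6.13% of all genes tested. The log2 difference of Igha was -1.92 (SE 0.51, limma adjusted p = 0.794).

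Jchain, which joins IgA and IgM into polymers, was at 7.90, 10.6 and 1.30 FPKM in HCD 1 to HCD 3, against 3.62, 13.5 and 7.46 FPKM in ND 1 to ND 3. Mzb1, a chaperone of antibody assembly, was at 3.26, 3.03 and 0.317 FPKM in HCD, against 0.290, 1.98 and 1.55 FPKM in ND. The B cell receptor subunit Cd79a was at 2.53, 1.51 and 0.394 FPKM in HCD, against 0.420, 0.654 and 0.366 FPKM in ND. These levels stand beside an Igkc level of up to 202 FPKM. Of 14 plasma cell genes 12 were tested, 5 with a higher and 7 with a lower HCD mean and none called. Most of their summed level was Txndc5, Xbp1 and Creld2, secretory genes with ranges of 71.1 to 94.1, 41.8 to 56.9 and 28.0 to 33.4 FPKM over the 6 libraries. Of 19 mature B cell genes 7 were tested, all 7 with a higher HCD mean and none called, with a median log2 difference of 0.19 against 0.02 over all genes tested.

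Genes of light chain recombination and of the surrogate light chain were at or near 0. Rag2, Igll1 and Vpreb2 were listed at 0 in all 6 libraries, and Rag1 had at most 0.00743 FPKM. Dntt, which adds bases at the junctions, lay between 0.0449 and 0.143 FPKM.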

How the data were processed

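RNA was purified on RNeasy columns and made into paired-end TruSeq libraries, per the labels' protocols. The authors deposited FPKM values per gene and sample, per the file headers. CASAVA 1.8, TopHat2 2.0.9, HTSeq, edgeR and mm10 appear in the submitters' processing notes, with no role given. Annotation release, strand use and the handling of reads that fit several segments are not given in the sources used here.

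Genes averaging 0.5 FPKM or more were tested with limma 3.58.1 in R 4.3.3 on log2(FPKM + 1), a scale that understates the change of low genes. Diet was the only term, with a variance trend, two-sided tests and Benjamini-Hochberg adjustment over all 13417 genes at 0.05. The script was tested on simulated data. A higher or lower mean of a tested gene is that of log2(FPKM + 1). Ratios and shares summed over members were described without a test. Library sizes and whole reads were recovered in Python 3.11.15 from the steps of the FPKM values, with a length within 15% of the GENCODE M21 one. Reads served for read counts, shares of reads, Wilson intervals and the FPKM with each base counted once, not for a count model. Positions are 1-based, from M21 on GRCm38, the assembly that mm10 names.

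Genes were named by a rule: constant, J and lambda V rows, the 3 highest Igkv of each library, the 10 Igkv with the highest mean, the lowest p in each direction, and of each marker list up to 4 genes with the highest mean plus Jchain, Cd79a and Mzb1. A gene that the rule also takes is not reported here. Other genes named were chosen after their values were seen. The members and lists were chosen with earlier results of these data known. Alternatives were another pseudocount, no filter, a replicate block, scaling, gene length, other forms of the ratio and the share, and each library left out.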

Additional observations from a re-analysis of the deposited data

How the results depend on the processing

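No light chain row was called in any setting run: the 0.1 pseudocount, the unfiltered table (98 members tested), the replicate number as a block, median-ratio scaling and leaving out each library in turn (0 to 0). Over all genes the count was 0 in each of these, except 1 without ND 2 (range 0 to 1 with a library left out). Scaling and the length with each base counted once (0.14 for the kappa to lambda difference) were chosen after seeing the data. The Igkc difference of 0.66 kept its sign and stayed uncalled, with 0.66 under a pseudocount of 0.1, no filter and the replicate block, 0.65 under scaling and 0.03 to 1.56 with a library left out. Its adjusted p ranged from 0.691 to 1.0 over these settings. The log2 kappa to lambda difference of -0.07 was 0.55 by variable segments, where HCD 3 enters, and 0.93 without Iglc1 in the lambda sum, and the cause was not tested. It ranged from -0.37 to 0.23 with a library left out. The leading segment's share, 11.7 percentage points higher in HCD, was 7.06 points higher without segments under 1 FPKM, where the diets overlapped, 11.1 by reads, 10.8 with each base counted once, and 5.89 to 15.03 with a library left out. The replicate block moved no count of calls (0 members, 0 genes). Deviations of same-numbered libraries correlated at -0.19, 0.142 and 0.0588 over genes, against up to 0.532 for libraries of different number. Whether same-numbered libraries share a batch cannot be told from these values. Depth limits HCD 3 and ND 1 most, with 686 and 576 light chain reads, and J segments throughout.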

Other observations

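Genes that keep or attract B lineage cells were measured beside the light chains. Tnfsf13b, the survival factor BAFF, was at 4.28, 5.16 and 1.29 FPKM in HCD 1 to HCD 3, against 1.36, 2.42 and 4.01 FPKM in ND 1 to ND 3. Ccl21a, a chemokine of lymph node stroma, was at 6.61, 2.93 and 0.330 FPKM in HCD, against 0, 1.40 and 0.557 FPKM in ND. A second row of the same name was at 0 in all 6 libraries. Ccl21a has near-identical copies in the mouse genome, so its values are uncertain. Cxcl13, which attracts B cells to follicles, was at 2.44, 1.32 and 0.125 FPKM in HCD, against 0.532, 1.03 and 1.602 FPKM in ND. Ltb, a lymphotoxin subunit, was at 3.05 to 6.21 FPKM in HCD and 3.66 to 4.17 FPKM in ND. Cxcl12, a plasma cell homing chemokine, was at 1.52 to 4.62 FPKM in HCD and 2.06 to 3.05 FPKM in ND. Of the 6 tested genes of this list all 6 had a higher HCD mean, where 55.7% of all genes tested did, and none was called. The log2 differences of Cxcl12 and Cxcl13 were only 0.009 and 0.05. Lta, named after its values were seen, was at 0.711, 0.885 and 0.484 FPKM in HCD, against 0.253, 0.386 and 0.421 FPKM in ND. Its HCD values lay wholly above ND, as did those of 5.98% of all genes tested, and the limma adjusted p of Lta was 0.794. Of the 9 recombination, surrogate light chain and receptor partner genes only Cd79a and Cd79b were tested, both with a higher HCD mean and neither called. The hepatoma markers had 3 of 4 HCD means higher and none called.

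Iglv1 exceeded Iglc1 by about the same factor in each library with both, 2.97 to 3.88 times per kilobase, while summed Igkv stood at 0.634 to 1.38 times Igkc in the deposited values. In the deposited values, the kappa to lambda ratio was 3.43 to 4.52 times higher by constant genes than by variable segments, in each library except HCD 3. There the constant ratio has no value. The multiple depends on gene length and was not worked out with each base counted once. With that length the constant ratio of ND 1 was 13.8 in place of 19.8. No 50-base window of Igkc or Iglc1 occurred in another annotated gene, whereas 22.2% of those of Iglv1 did. Of the 90 members with such windows, 68 had at least 1 in another gene, so reads of variable segments are less certainly assigned.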
